A study of Bos taurus with 8 samples.

Results

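The genes described here encode structural components of the basement membrane, the thin sheet of extracellular matrix that wraps each muscle fibre and lies over its satellite cells. They were chosen by name as perlecan (HSPG2), type IV collagen alpha chains (COL4A1, COL4A2), laminin chains (LAMA2, LAMA4, LAMB1, LAMC1), the nidogens (NID1, NID2), and the alpha 1 chain of type XVIII collagen (COL18A1), with the question of whether the other genes follow HSPG2. Of the 10 genes, 4 (HSPG2, NID1, NID2, and COL18A1) had a named probe, 1 probe each, among 7789 genes that could be named on the array. The type IV collagen and laminin chains had no named probe and are not analysed here, so the values below cover the perlecan, nidogen, and collagen XVIII side of the membrane and not its laminin and collagen IV networks. HSPG2 is also among the genes that the study lists from these arrays, and its own difference is therefore not independent evidence.

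Laminin and type IV collagen each form a network in the basement membrane, and nidogens and perlecan hold the networks together. Perlecan is a large proteoglycan whose heparan sulfate chains bind growth factors, and collagen XVIII also carries heparan sulfate and releases the fragment endostatin from its end. In skeletal muscle, the sheet is the anchor of the fibre and part of the satellite cell niche, and fibroblasts and vessel cells contribute components of it as well as muscle cells.

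Primary muscle cell cultures were derived from the semitendinosus muscle of 15-month-old bulls of the breeds Limousin (LIM) and Hereford (HER), both kept for beef, and Holstein-Friesian (HF), a dairy breed and the reference, and were frozen while proliferating at 80% confluence, without treatment. RNA was hybridised to 8 two-colour arrays, 4 with HER in Cy3 against HF in Cy5 and 4 with LIM in Cy5 against HF in Cy3, labelled as biological replicates 1 to 4 of each comparison. Which HF culture lay on which array is not stated. With 4 HF bulls and 8 arrays, HF bulls must recur over arrays, and the comparisons may share HF cultures. Within a comparison, the effects of breed, of slide, and of the dye each RNA carried cannot be told apart, whereas a dye effect of a probe cancels in the mean of both comparisons, called the beef effect below.

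All values are log2 ratios of beef breed over HF, and a gene was called when its Benjamini-Hochberg adjusted p over the 17622 tested probes was at most 0.05 in limma and its fold change was at least 1.3. The HF channel was similar over arrays, with 73.8% to 78% well above background. The beef channel differed by comparison without overlap, with 68.75% to 74.96% on HER arrays and 80.87% to 85.2% on LIM arrays. HER replicate 3 was lowest and also had the most spots left out as outliers (130, against 6 to 37 on the other arrays). HER replicate 4 had the smallest SD of the log2 ratios over tested probes (0.6525). All 4 genes were well above background in 16 of 16 channels, so no value of these 4 genes rests on a bound. Of 9 myoblast markers, 8 had a probe and each of these (among them MYF5, MYOD1, and DES) was well above background in all channels. PAX7, the satellite cell marker, had no named probe. The 9 tested fibroblast markers were also well above background in all channels, so detection alone does not identify the cell type. All 8 myoblast markers were called higher in the beef effect (17.7% of all tested probes higher and 20.4% lower). The largest effects were those of DES, the intermediate filament protein desmin (2.69), and CDH15, M-cadherin (2.38). MYF5, DES, ITGA7, MYOG, and CHRNA1 are also among the genes that the study lists from these arrays, so their differences are not independent evidence. MYOD1 was called in neither LIM nor HER alone (limma adjusted p = 0.117 and 0.0706).

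In the beef effect, 4 of 4 genes were called higher, where 17.7% of all tested probes were called higher and 20.4% lower. In LIM, 3 of 4 genes were called higher (16.1% of all tested probes higher and 18.3% lower), and in HER 2 of 4 (10.4% higher and 14% lower). None was called lower in any of these comparisons. HSPG2 could be named only through the gene list of the paper, so its calls were known beforehand. It is included in these counts and in the medians below. Apart from HSPG2, the genes called higher were NID1, NID2, and COL18A1 in the beef effect, NID1 and COL18A1 in LIM, and NID1 in HER. The median log2 ratio of the 4 genes was 2.48 in LIM, 1.76 in HER, and 2.23 in the beef effect, beside medians of -0.01, -0.06, and -0.04 over all tested probes. In cultures of mixed cells, fewer cells of one type and less RNA per cell cannot be told apart.

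**Figure D1:**
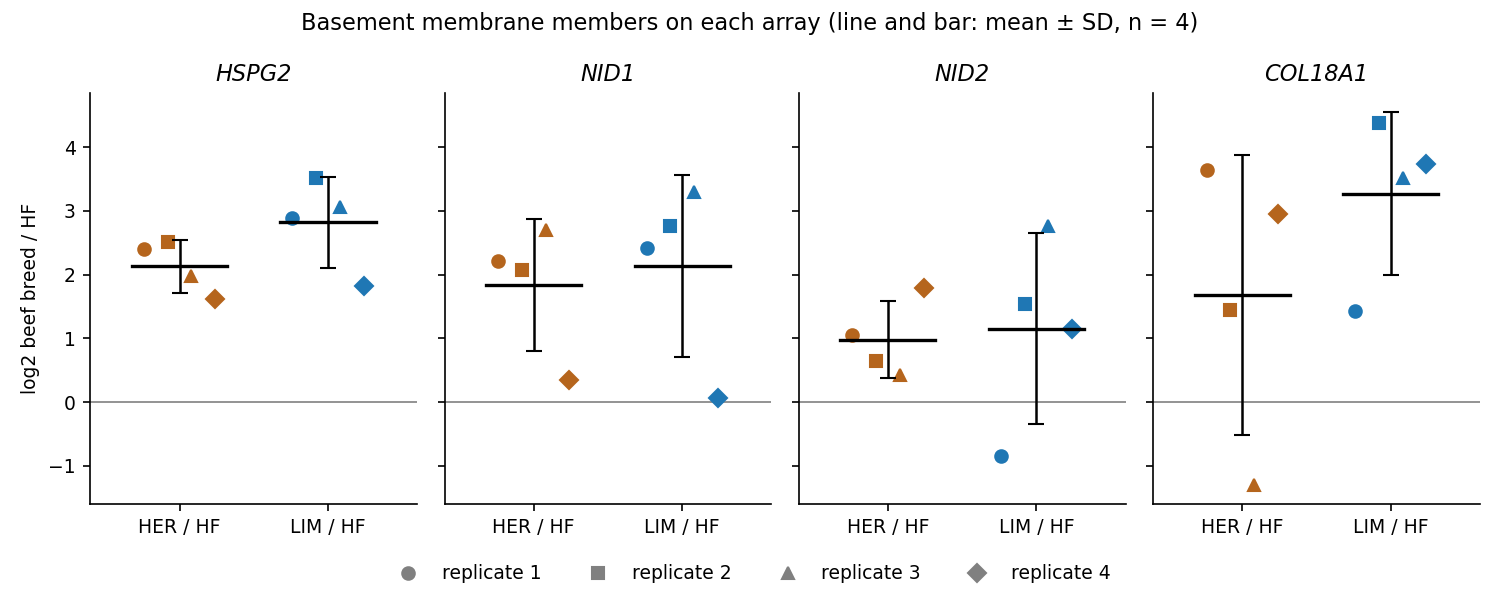
Log2 ratio of beef breed over HF (vertical axis) for each gene on the 4 HER and 4 LIM arrays (horizontal axis). Marker shapes give the replicate number, and the black line and bar give the mean and SD over 4 arrays. HSPG2 lies between 1.62 and 3.51 on every array, NID1 is lowest on replicate 4 of both comparisons, NID2 is below 0 on LIM replicate 1, and COL18A1 is below 0 on HER replicate 3.

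HSPG2, the perlecan core protein, was higher in beef cultures on every array. Its log2 ratio on HER arrays 1 to 4 was 2.40, 2.51, 1.98, and 1.62, and on LIM arrays 1 to 4 it was 2.89, 3.51, 3.06, and 1.82. Replicate 4 gave the lowest ratio in both comparisons, and the ranges of the comparisons overlapped. The ratio was 2.82 ± 0.72 in LIM (SD, n = 4, 7.07-fold, limma adjusted p = 0.000591) and 2.13 ± 0.41 in HER (SD, n = 4, 4.37-fold, limma adjusted p = 0.00308). The beef effect was 2.47 (5.56-fold, 95% interval 4.15 to 7.44, limma adjusted p = 0.000128).

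Both channels of HSPG2 were bright. The processed signal, in scanner units, ran from 26400 to 105000 in the beef channel and from 6700 to 22300 in the HF channel. The lowest beef signal thus lay above the highest HF signal, which held for 1.4% of all tested probes. Both the lowest beef and the lowest HF signal were those of HER replicate 3, whose ratio of 1.98 was within the range of the other HER arrays.

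NID1, nidogen-1, which bridges laminin and type IV collagen, was also higher on 8 of 8 arrays, a pattern found in 11.7% of all tested probes. Its log2 ratio on HER arrays 1 to 4 was 2.22, 2.08, 2.70, and 0.34, and on LIM arrays 1 to 4 it was 2.42, 2.77, 3.29, and 0.06. Replicates 1 to 3 of both comparisons were at or above 2.08, whereas both replicate 4 arrays were close to 0. NID1 was called in LIM (2.14 ± 1.43, SD, n = 4, 4.4-fold, limma adjusted p = 0.0157), in HER (1.84 ± 1.03, SD, n = 4, 3.57-fold, limma adjusted p = 0.0379), and in the beef effect (1.99, 3.96-fold, 95% interval 2.18 to 7.2, limma adjusted p = 0.00328). The size of the NID1 difference depended on the normalisation. With normexp background correction and loess of the raw signals the beef effect was 0.88 and still called, whereas HER gave 0.46 and was not called (limma adjusted p = 0.48). With outlying local backgrounds replaced before the same steps, the beef effect was 1.27 and HER was called.

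On the replicate 4 arrays both channels of NID1 differed from the other arrays. The beef signal was 215 on HER replicate 4 and 188 on LIM replicate 4, and between 334 and 833 elsewhere. The HF signal was 171 and 179 on these arrays, and between 51.4 and 124 elsewhere. Without both replicate 4 arrays, an omission chosen after seeing these values, the beef effect of NID1 was 2.58. The calls in the separate comparisons were less firm, since the LIM call was lost without any 1 of LIM replicates 1, 2, and 3 (limma adjusted p from 0.0543 to 0.0741), and the HER call without any 1 of HER replicates 1, 2, and 3 or LIM replicates 1 and 2 (limma adjusted p from 0.0504 to 0.132).

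NID2, nidogen-2, the paralogue with an overlapping role, had the lowest beef effect of the 4 genes. Its log2 ratio on HER arrays 1 to 4 was 1.06, 0.64, 0.43, and 1.79, and on LIM arrays 1 to 4 it was -0.85, 1.54, 2.77, and 1.14. It was above 0 on 7 of 8 arrays, and the LIM arrays spanned the whole range of values. NID2 was not called in LIM (1.15 ± 1.5, SD, n = 4, limma adjusted p = 0.0988) or in HER (0.98 ± 0.60, SD, n = 4, limma adjusted p = 0.17), but was called in the beef effect (1.07, 2.09-fold, 95% interval 1.21 to 3.63, limma adjusted p = 0.0337). That call was lost on leaving out any 1 array other than HER replicate 3 and LIM replicate 1 (0.80 to 1.12, limma adjusted p from 0.0556 to 0.0804), and so stands near the threshold. The HF signal of NID2 was even over arrays, from 2340 to 5440, while the beef signal ran from 3020 to 22500.

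COL18A1, the collagen XVIII chain, had a beef effect as high as that of HSPG2 and the widest spread of the 4 genes. Its log2 ratio on HER arrays 1 to 4 was 3.64, 1.44, -1.30, and 2.95, and on LIM arrays 1 to 4 it was 1.43, 4.38, 3.52, and 3.73. HER replicate 3 was the only array below 0, and HER replicate 2 and LIM replicate 1 were the next lowest. COL18A1 was called in LIM (3.27 ± 1.28, SD, n = 4, 9.62-fold, limma adjusted p = 0.012) and in the beef effect (2.47, 5.56-fold, 95% interval 2.37 to 13, limma adjusted p = 0.00615). In HER the difference did not exceed the spread between arrays (1.68 ± 2.19, SD, n = 4, limma adjusted p = 0.134).

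Single arrays decided both separate results for COL18A1. Without LIM replicate 2 the LIM value was 2.89 and no longer called (limma adjusted p = 0.0523), and without HER replicate 3 the HER value was 2.68 and called (limma adjusted p = 0.0286). The beef signal of COL18A1 ran from 843 to 72900, an 86.6-fold range, while the HF signal ran from 1150 to 4940, a 4.28-fold range.

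**Figure D2:**
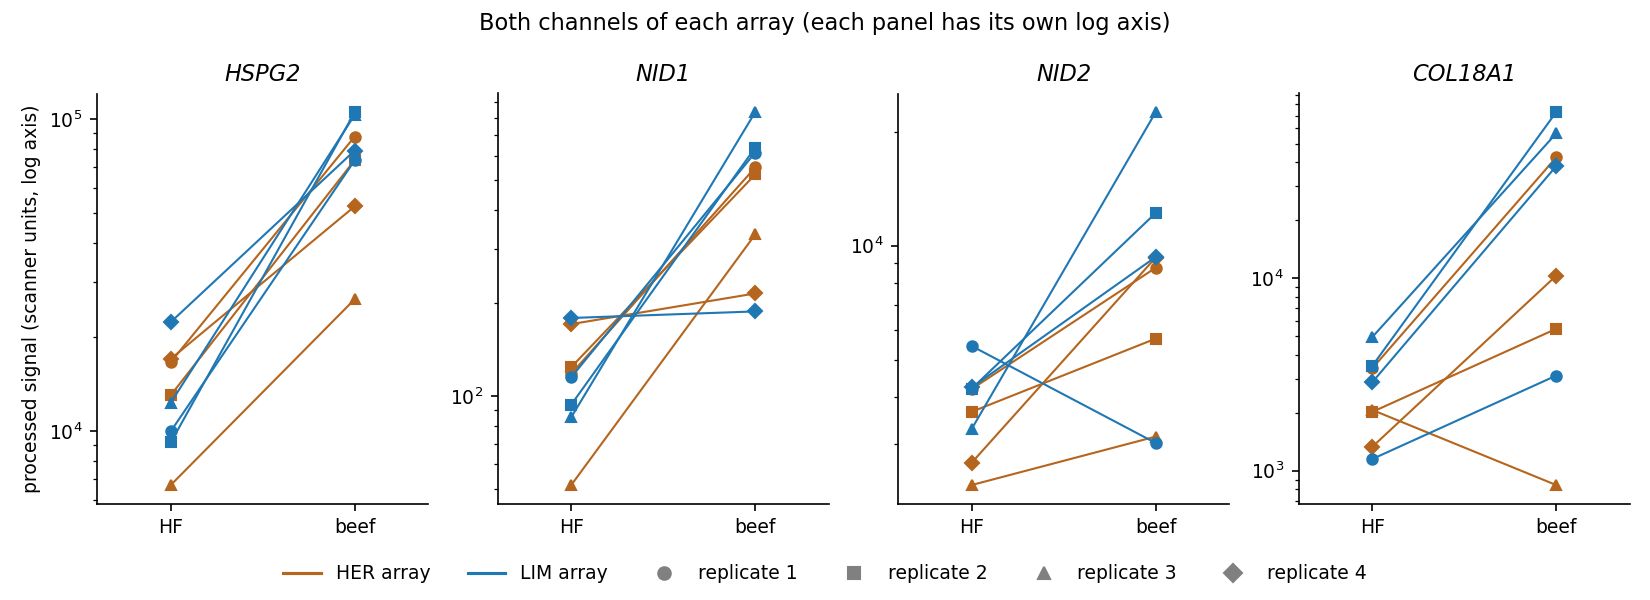
Processed signal in scanner units of the HF channel (left) and the beef channel (right) of each array, joined by a line per array and coloured by comparison, on a log axis of its own for each gene, since levels of different probes are not comparable. For HSPG2 all lines rise from 6700 to 22300 in HF to 26400 to 105000 in beef, the NID1 lines of replicate 4 are nearly flat, and the COL18A1 beef signals spread from 843 to 72900.

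The genes thus varied on different sides of the ratio. With each channel scaled to its 75th percentile, the SD of the log2 signal over 8 arrays was 0.40 in the beef channel and 0.62 in the HF channel for HSPG2, and 0.68 and 0.60 for NID1. For NID2 it was 0.95 and 0.18, and for COL18A1 2.14 and 0.71. The spread of NID2 and COL18A1 lay mostly in the beef cultures, whereas that of HSPG2 and NID1 lay in both channels. These SDs are a description without a test.

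The beef breeds were also compared with each other through their ratios to HF. None of the 4 genes was called in the LIM minus HER difference, where 0.233% of all tested probes were called in either direction, and without adjustment of the limma p the count was also 0 of 4 (14.1% of all tested probes). The difference was 0.69 for HSPG2 (95% interval -0.15 to 1.53, limma adjusted p = 0.429), 0.30 for NID1 (-1.42 to 2.02, limma adjusted p = 0.894), 0.17 for NID2 (-1.42 to 1.76, limma adjusted p = 0.937), and 1.58 for COL18A1 (-0.88 to 4.05, limma adjusted p = 0.547). The intervals include both no difference and differences of more than 2-fold, so LIM and HER could not be ordered for any of the genes, and in this difference the breed cannot be told apart from the dye.

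Whether the other genes follow HSPG2 from array to array was examined over the 8 arrays, with exact two-sided permutation tests over all pairings of arrays and adjustment over the 3 relations. NID1 had Pearson's r = 0.76 with HSPG2 (exact permutation p = 0.0291, adjusted p = 0.0874) and Spearman's rho = 0.79 (exact permutation p = 0.0279, adjusted p = 0.0838), and 4% of all tested probes had an r with HSPG2 at least as high. The relation did not pass the threshold after adjustment. It was 0.69 without the 2 arrays farthest from the median HSPG2 ratio, 0.66 within HER, and 0.92 within LIM. Without HER replicate 3 alone it was 0.91 and passed (exact permutation adjusted p = 0.0179). Without replicate 4 of both comparisons it was 0.42, so much of it rested on the arrays on which both genes had low ratios.

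COL18A1 and NID2 did not follow HSPG2 detectably. COL18A1 had r = 0.32 (exact permutation p = 0.462, adjusted p = 0.693) and rho = 0.21 (exact permutation p = 0.619, adjusted p = 0.929), and 30.5% of all tested probes had at least that r. Without the 2 arrays farthest from the median HSPG2 ratio its r was 0.22, and it was 0.09 within HER and 0.09 within LIM. Without replicate 4 of both comparisons it was 0.76 over the 6 remaining arrays (exact permutation adjusted p = 0.183). NID2 had r = 0.07 (exact permutation p = 0.874, adjusted p = 0.874) and rho = 0.05 (exact permutation p = 0.935, adjusted p = 0.935), with 46.4% of all tested probes at or above that r, 0.15 without the 2 arrays farthest from the median HSPG2 ratio, -0.59 within HER, and 0.17 within LIM. The median r of all tested probes with HSPG2 was 0.015. All genes of an array share its hybridisation and its HF culture, and 8 arrays leave each r with a wide error.

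**Figure D3:**
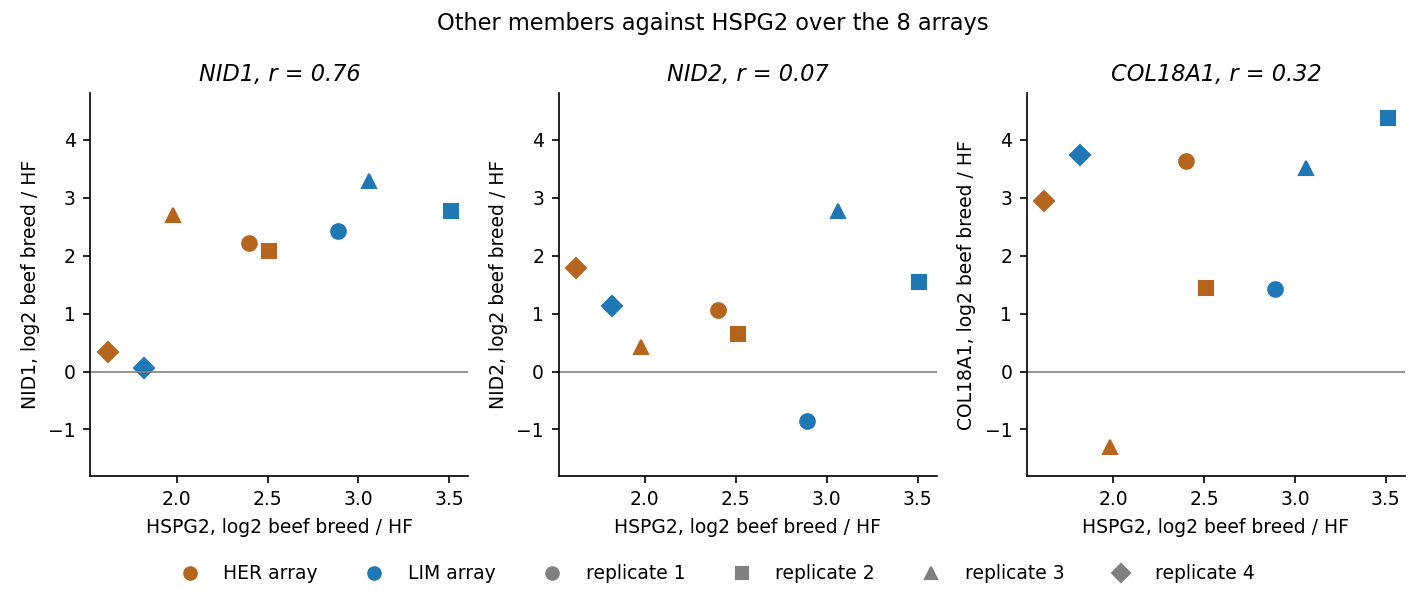
Log2 ratio of beef breed over HF for NID1, NID2, and COL18A1 (vertical axes) against that of HSPG2 (horizontal axis), 1 point per array, with colour for the comparison and shape for the replicate. The replicate 4 arrays have the lowest HSPG2 ratios (1.62 and 1.82) and the lowest NID1 ratios (0.34 and 0.06), while NID2 (r = 0.07) and COL18A1 (r = 0.32) show no such order.

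The 5 named genes most alike HSPG2 over the 8 arrays, by Pearson's r and as a description only, belonged to other groups. They were GABARAPL1, an autophagy protein (r = 0.985, beef effect 1.45), NT5C2, a cytosolic nucleotidase (r = 0.972, beef effect 0.66), NCOA5, a nuclear receptor coactivator (r = 0.971, beef effect -0.52), CAMK1, a calmodulin-dependent kinase (r = 0.961, beef effect 0.95), and PLA2R1, a phospholipase receptor (r = 0.948, beef effect 1.00). NCOA5 was below 0 on every array (-0.80 to -0.26) and least so where HSPG2 was highest. Likeness in r therefore says nothing of the direction of the difference.

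Of 28 other basement membrane components, 8 had a named probe and 7 were tested, of which 6 were called higher in the beef effect and none lower, with a median of 0.92. The highest as deposited were SPARC, a collagen-binding glycoprotein of the membrane (2.54, 5.82-fold, limma adjusted p = 0.000168, 8 of 8 arrays), and LAMB3, the laminin beta 3 chain (2.14, limma adjusted p = 0.000195, 8 of 8 arrays). LAMB3 was the only laminin chain with a value, and its HF channel was well above background on 2 of 4 HER arrays and 3 of 4 LIM arrays. Its size depended on the normalisation, being 0.52 with normexp and loess and 0.84 with outlying backgrounds also replaced, both called. The lowest of those called were COL15A1, the collagen XV chain and the closest relative of COL18A1 (0.65, limma adjusted p = 0.0198, 7 of 8 arrays), and VWA1, a perlecan-binding matrix protein (0.92, limma adjusted p = 0.0368, 5 of 8 arrays). VWA1 was 2.00 in LIM, where the HF channel was well above background on none of 4 arrays and the level in LIM was at least 1.95-fold higher, and -0.16 in HER, where the HER channel was well above background on none. The VWA1 call was lost under both normexp settings (0.05 and 0.03). The COL15A1 call was lost with normexp and loess (0.54, limma adjusted p = 0.067). It was kept with outlying backgrounds also replaced (0.68, limma adjusted p = 0.0208). COL15A1 was called in neither LIM nor HER alone (limma adjusted p = 0.0859 and 0.0966). Without HER replicate 1 or without LIM replicate 3, the count of components called fell to 3.

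Of 14 basement membrane receptors, 6 were tested, 3 were called higher in the beef effect, and none was called lower, with a median of 0.64. They were ITGA7, the laminin-binding integrin alpha chain of muscle (1.52, 2.86-fold, limma adjusted p = 0.000336, 8 of 8 arrays), DDR1, a collagen receptor kinase (0.88, limma adjusted p = 0.000811, 8 of 8 arrays), and BCAM, a laminin-binding adhesion molecule (0.40, limma adjusted p = 0.0134, 8 of 8 arrays). ITGA7 also stands among the myoblast markers and among the genes that the study lists from these arrays. DDR1 had 3 tested probes, of which the brightest is given. Another gave 0.96 (limma adjusted p = 0.00103) and the third 0.39, not called (limma adjusted p = 0.189).

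Of 20 genes for enzymes and chaperones of collagen processing, 11 were tested, 9 were called higher in the beef effect, and none was called lower, with a median of 1.33. The highest were LOXL2, a lysyl oxidase that crosslinks collagen IV (2.32, 4.99-fold, limma adjusted p = 0.000163, 8 of 8 arrays), and PLOD3, a lysyl hydroxylase that also glycosylates hydroxylysine (1.92, 3.79-fold, limma adjusted p = 0.000395, 8 of 8 arrays). The lowest of those called were P4HA1, a prolyl 4-hydroxylase subunit (0.85, limma adjusted p = 0.00281), and COLGALT1, a collagen galactosyltransferase (0.72, limma adjusted p = 0.000556). SERPINH1, the collagen chaperone HSP47 (0.65, limma adjusted p = 0.132), and P3H2, a prolyl 3-hydroxylase (-0.29, limma adjusted p = 0.0545), were the genes not called, and are named because they were so few. The mean log2 ratio of the list was 1.49, 1.53, 1.24, and 0.79 on HER arrays 1 to 4, and 1.55, 1.33, 1.69, and 0.46 on LIM arrays 1 to 4. It was lowest on replicate 4 of both comparisons, where the mean of the fibroblast markers described below was also lowest (0.15 and 0.23). Without these 2 arrays 10 of 11 genes were called, and the part of fibroblasts in this result was not tested.

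Of 20 genes for enzymes of heparan sulfate, the chains of perlecan and collagen XVIII, 8 were tested, 3 were called higher in the beef effect, and none was called lower, with a median of 0.31. The called genes were EXTL1 (1.40, 2.63-fold, limma adjusted p = 0.000322, 8 of 8 arrays) and EXT2 (1.18, 2.26-fold, limma adjusted p = 0.000662, 8 of 8 arrays), both of the exostosin family of chain-building glycosyltransferases, and GLCE, the glucuronic acid epimerase (0.84, limma adjusted p = 0.00944, 7 of 8 arrays). GLCE was dim, with HER well above background on 2 of 4 arrays and HF on 3 of the same 4, and with LIM on 4 of 4 arrays and HF on 1. Its call was lost with normexp and loess (0.12, limma adjusted p = 0.0491) and with outlying backgrounds also replaced (0.19, limma adjusted p = 0.00828). In both settings GLCE missed the fold threshold alone. EXTL1 was 0.59 and 0.83 under these settings and called. The counts of these lists were not compared with each other by a test, and the background of 17.7% called higher applies to each.

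**Figure D4:**
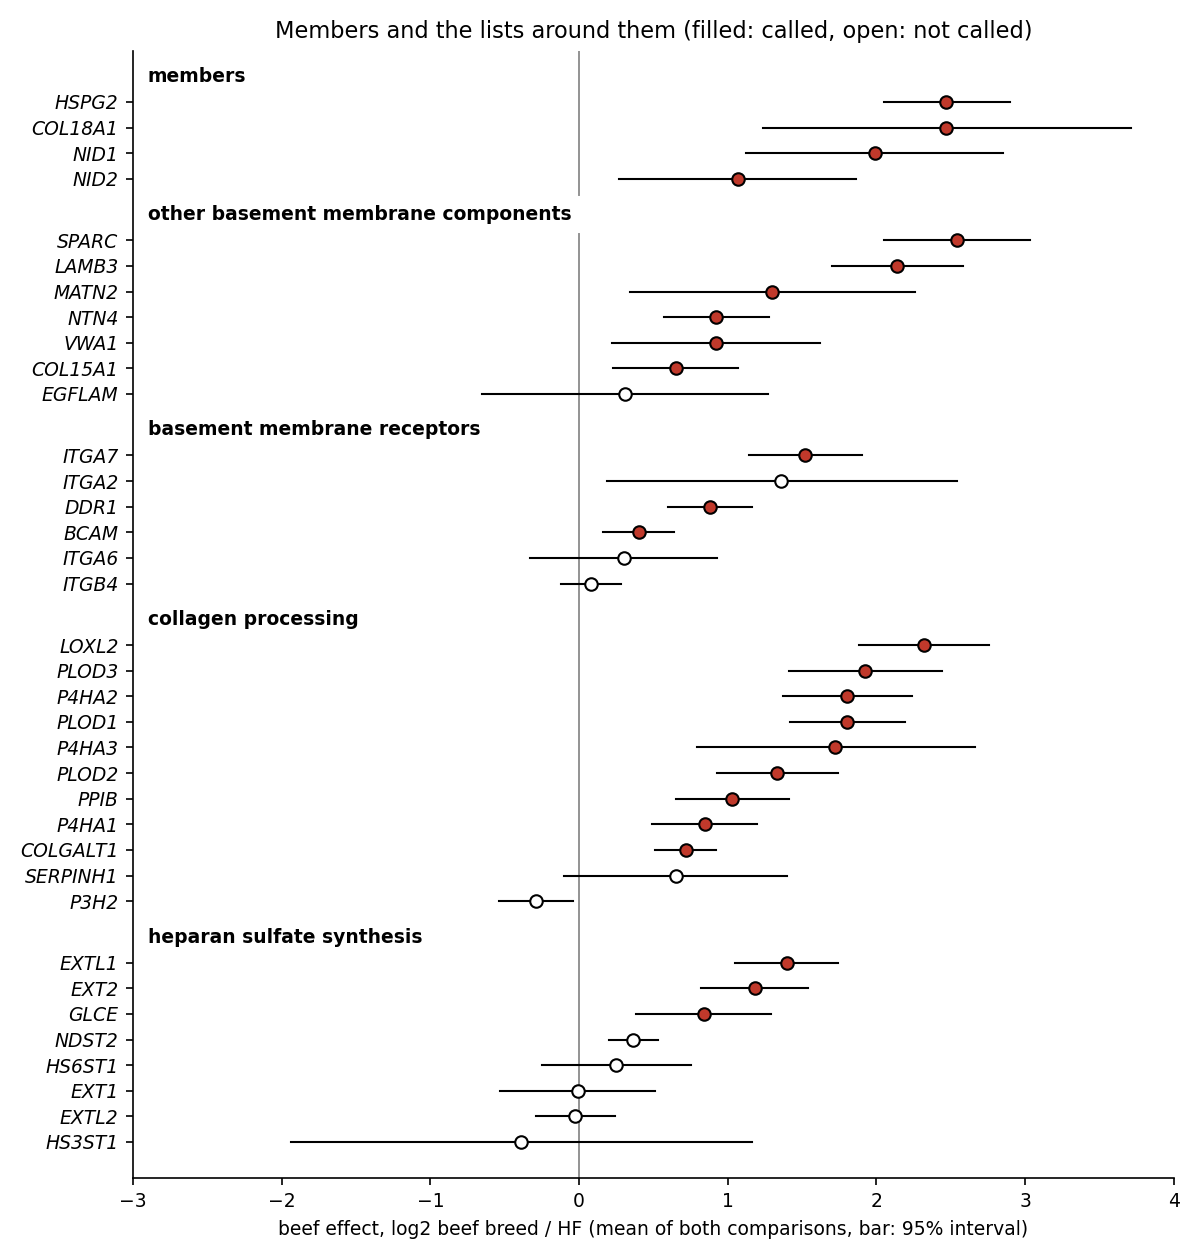
Beef effect (log2 beef breed over HF, mean of both comparisons, with its 95% interval, horizontal axis) of the 4 basement membrane genes and of all tested genes of the surrounding lists (vertical axis), with filled points for genes called and open points for the rest. Among the collagen processing enzymes 9 of 11 points are filled and lie between 0.72 and 2.32, and among the heparan sulfate enzymes 3 of 8 are filled.

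Markers of other cell types moved with some of these values. Of 9 endothelial markers, 6 were tested (KDR, TEK, TIE1, ERG, CLDN5, and EMCN), and PECAM1, CDH5, and VWF had no named probe. None of the 6 was called in the beef effect in limma (17.7% of all tested probes higher and 20.4% lower), and 1 passed without adjustment. The largest beef effects were those of TIE1 (1.33, limma adjusted p = 0.0722) and TEK (1.23, limma adjusted p = 0.189), both vessel receptor kinases. TIE1 gained a call in 6 of 24 alternatives and TEK in 2 of 23. Among them was TIE1 under normexp and loess with outlying backgrounds replaced (1.03, limma adjusted p = 0.0478). In HER alone, CLDN5, a tight junction protein, was called lower (-0.57, limma adjusted p = 0.0147). Their summed signal ran from 267 to 10500 in the beef channel and from 586 to 2660 in the HF channel. The mean log2 ratio of the list was 2.69, -0.19, -2.46, and 1.17 on HER arrays 1 to 4, and -0.63, 2.60, 0.77, and 2.71 on LIM arrays 1 to 4, so that HER replicate 3 and LIM replicate 1 were lowest, as 2 of the 3 lowest arrays of COL18A1.

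The relation of each of the 4 genes to 6 marker lists was then computed over the 8 arrays, 24 relations in all, chosen after seeing the data. COL18A1 had r = 0.95 with the mean ratio of the endothelial markers (exact permutation p = 0.000818, adjusted p = 0.0196) and rho = 0.90 (exact permutation p = 0.00456, adjusted p = 0.11). It was 0.91 without the 2 arrays farthest from the median of the markers, 0.98 within HER, and 0.90 within LIM. By single marker, COL18A1 had an r between 0.92 and 0.93 with KDR, TEK, TIE1, ERG, and EMCN, and 0.54 with CLDN5. HSPG2 had r = 0.13 with the same list (exact permutation p = 0.75, adjusted p = 0.75), rho = -0.17 (exact permutation p = 0.703, adjusted p = 0.767), and 0.10 without the 2 farthest arrays. Without HER replicate 3 and LIM replicate 1, an omission also chosen after seeing the data, COL18A1 was called in both HER (2.68, limma adjusted p = 0.0189) and the beef effect (3.28). The part of endothelial cells in the COL18A1 result was not tested.

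NID1 moved with most, not all, of the fibroblast markers. The methods enriched the cultures for myoblasts by repeated preplating, which depletes fast-attaching cells such as fibroblasts, but describe the resulting purity as incomplete. Of 10 markers, 9 were tested, and 7 were called higher and 2 lower in the beef effect. Over all tested probes, 17.7% were called higher and 20.4% lower. The largest effects were those of COL3A1 (2.69, limma adjusted p = 0.00123) and COL1A2 (2.55, limma adjusted p = 0.0013), both fibrillar collagen chains. PDGFRA and TCF21, a receptor and a transcription factor of fibroblasts, were the markers called lower (-1.42 and -1.13, limma adjusted p = 0.000313 and 0.00279), and are named because they were so few. DCN, decorin, was counted as higher by its brighter probe (1.63, limma adjusted p = 0.0151), while its other probe gave -0.35 and was not called. The summed signal of the list ran from 280000 to 789000 in the beef channel and from 55500 to 228000 in the HF channel. Its mean log2 ratio was 1.18, 0.83, 1.53, and 0.15 on HER arrays 1 to 4, and 1.64, 1.14, 1.65, and 0.23 on LIM arrays 1 to 4, lowest on replicate 4 of both comparisons, as for NID1.

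Over the 8 arrays NID1 had r = 0.93 with the fibroblast list (exact permutation p = 0.0031, adjusted p = 0.0372) and rho = 0.81 (exact permutation p = 0.0218, adjusted p = 0.174). It was 0.97 within HER and 0.92 within LIM, and 0.65 without the 2 arrays farthest from the median of the markers, which were the replicate 4 arrays. By single marker, NID1 had an r between 0.82 and 0.93 with COL1A1, COL1A2, COL3A1, DCN, LUM, and THY1, but 0.18 with FAP, -0.08 with TCF21, and -0.40 with PDGFRA. HSPG2 had r = 0.64 with this list (exact permutation p = 0.0954, adjusted p = 0.286), rho = 0.62 (exact permutation p = 0.115, adjusted p = 0.307), and 0.02 without the same 2 arrays. ITGA7, a myoblast marker, had r = 0.82 with NID1 and 0.77 with HSPG2. The other myoblast markers ran from -0.25 to 0.54 with NID1 and from -0.44 to 0.68 with HSPG2. With the mean of the myoblast list, r was 0.35 for NID1, 0.22 for HSPG2, -0.44 for NID2, and -0.46 for COL18A1. None of these passed (exact permutation adjusted p from 0.454 to 0.648). The part of fibroblasts in the NID1 result was not tested.

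The next strongest relations were those with the mean of 5 adipocyte markers, which themselves moved in both directions, and neither passed after adjustment. NID1 had r = 0.82 with this list (exact permutation p = 0.0128, adjusted p = 0.103) and rho = 0.76 (exact permutation p = 0.0368, adjusted p = 0.221), and 0.90 without LIM replicates 1 and 4, the 2 arrays farthest from the median of the markers. HSPG2 had r = 0.75 (exact permutation p = 0.0313, adjusted p = 0.188) and rho = 0.86 (exact permutation p = 0.0107, adjusted p = 0.129), and 0.86 without the same 2 arrays. Without replicate 4 of both comparisons, r with this list was 0.14 for NID1 and 0.51 for HSPG2. The part of adipocytes was not tested. Only the relations of COL18A1 with the endothelial list and of NID1 with the fibroblast list passed among the 24 after adjustment of the exact permutation p of r.

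**Figure D5:**
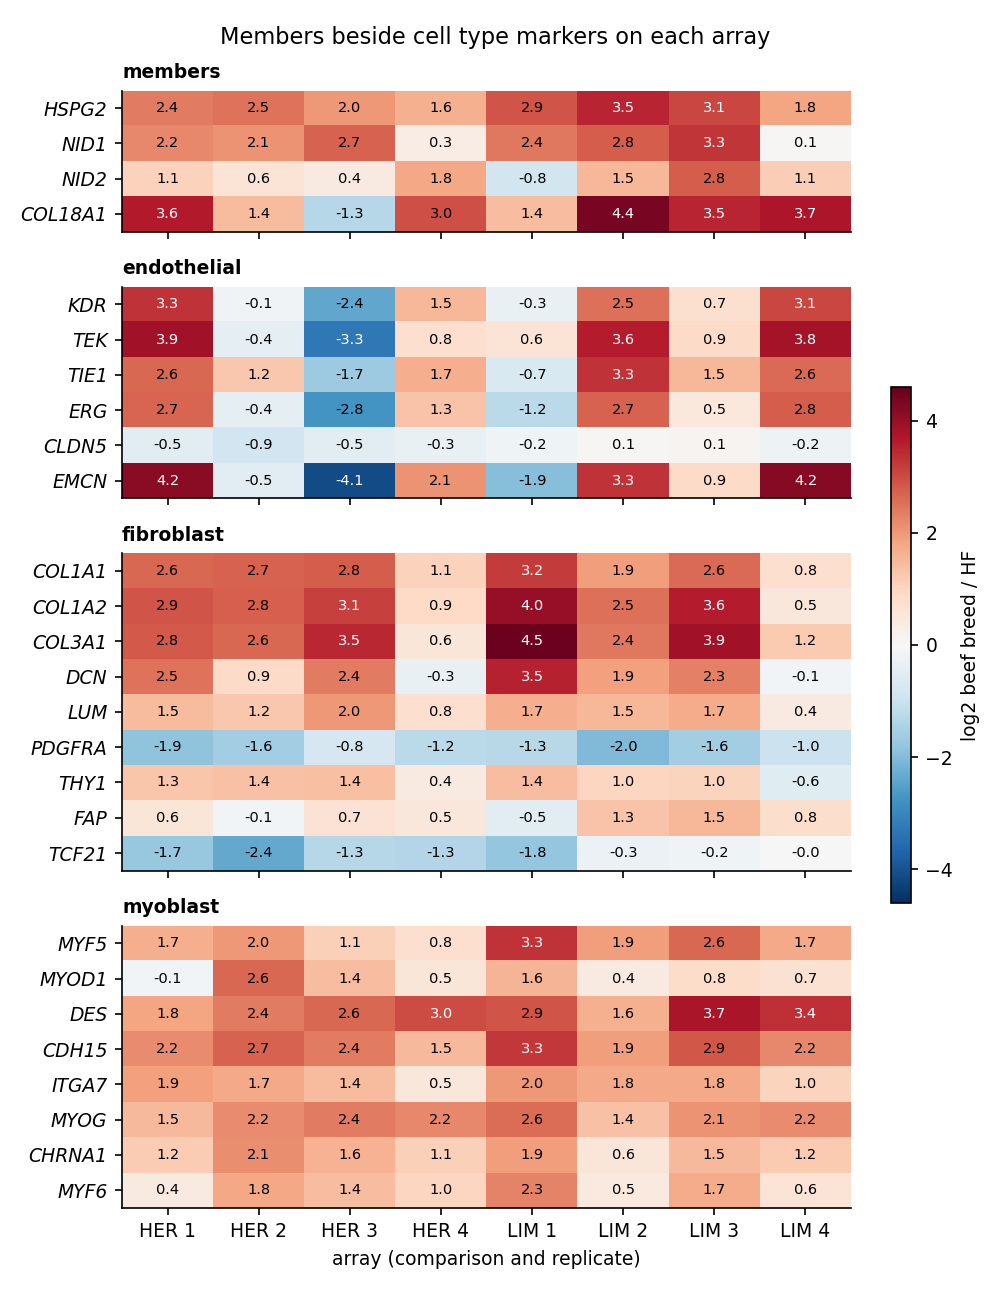
Log2 ratio of beef breed over HF on each array (columns) for the 4 basement membrane genes and the tested endothelial, fibroblast, and myoblast markers (rows), with red for higher and blue for lower in beef. COL18A1 has its 3 highest ratios on HER 1, LIM 2, and LIM 4 and its lowest on HER 3, as do KDR, TEK, TIE1, ERG, and EMCN, and NID1 is lowest on HER 4 and LIM 4, as are COL1A1 and COL1A2 but not PDGFRA, TCF21, and FAP.

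The remaining marker lists differed in direction, and of these only the adipocyte list held calls both ways. Beside their counts, 17.7% of all tested probes were called higher in the beef effect and 20.4% lower. Of 4 tested smooth muscle and pericyte markers, 3 were called higher in the beef effect, with the largest for MYH11, smooth muscle myosin (1.56, limma adjusted p = 0.00305), and MCAM, which vessel walls also express (1.56, limma adjusted p = 0.0418). MYH11, also among the genes that the study lists, was 0.40 and not called with normexp and loess. It was 0.73 and called with outlying backgrounds also replaced. Of 5 adipocyte markers, 2 were called higher and 2 lower, with the largest for CEBPA (-1.38, limma adjusted p = 0.000509) and PLIN1 (1.05, limma adjusted p = 0.00505). The PLIN1 call was lost under both normexp settings by the fold threshold alone (0.18 and 0.28, limma adjusted p = 0.0454 and 0.00716). Among leukocyte markers, CD68 was higher (0.81) and CD14 was not called (0.01). Under the normexp settings CD68 was not called (0.19 and 0.26, limma adjusted p = 0.0572 and 0.00959), in the latter by the fold threshold alone. Among 3 markers of dividing cells, BUB1 was lower (-0.65, limma adjusted p = 0.0245). PCNA (-0.55, limma adjusted p = 0.0698) and CDK1 (-0.15, limma adjusted p = 0.608) were not called. The BUB1 call was lost in 6 of 24 alternatives, among them normexp and loess (-0.42, limma adjusted p = 0.0702). It was kept with outlying backgrounds also replaced (-0.56, limma adjusted p = 0.0263).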

How the data were processed

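The authors deposited the output of Feature Extraction 10.7.3.1 for each array, with the log10 of the red to green ratio, background-subtracted and dye-normalized by the software, and the median spot and background intensity of both channels. The deposited series table held the same values. Ratios were multiplied by log2 of 10, turned to beef over HF, and averaged over spots of a probe, leaving out control spots and spots marked as outliers (6 to 130 per array). A probe was tested if 4 or more of the 16 channels were well above background (17622 of 21475). limma 3.58.1 in R 4.3.3 fitted both comparisons together. Probes carried no symbols. RefSeq accessions named 8297 probes, and HSPG2 was named from the gene list of the paper. No probe sequence or genome was used, and the build of the array grid differs from that of the accession table, so no positions are given. The brightest tested probe stood for a gene.

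The genes and lists were chosen with earlier results of these data known. All 4 members were named, with up to 4 called genes per list (2 highest, 2 lowest by beef effect), 2 markers per cell type (1 list is not reported here), and the 5 genes most alike HSPG2. Replicate numbers did not pair the arrays and were used as a block only as an alternative. Other alternatives were background, centring, scaling, filters, weights, thresholds, the methods' t-test, and leaving out arrays. Both normexp settings added an offset of 50 to each channel, which shrinks the ratios of dim probes. The limma fit with its calls, and the permutation test with its adjustment, were tested on simulated data without shared HF cultures. The other steps were not tested in this way. Precision is limited by 4 arrays per comparison, and p-values measure the spread between these cultures. The main fit and the permutation tests treated the 8 arrays as independent. They make no allowance for HF bulls that recur over arrays. The p-values of the beef effect and the exact permutation p-values of the relations over arrays may therefore be too small.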

Additional observations from a re-analysis of the deposited data

Results flagged for a closer look

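Among 66 groups of 4 arrays (the named genes in LIM and in HER), 1 held an array far from the rest, and chance gives about 1 in 20. BUB1, a mitotic checkpoint kinase, had a log2 ratio of -1.47 on HER replicate 2, against -0.68 to -0.59 on the other HER arrays.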

How the results depend on the processing

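HSPG2 was called higher in LIM, HER, and the beef effect under every alternative but normexp and loess (HER 1.86, adjusted p = 0.19) and the methods' t-test after Benjamini-Hochberg (adjusted p = 0.0542 in LIM and 0.0771 in HER). The count of the 4 genes called in HER was 0 under normexp and loess with local backgrounds as measured, where no probe was called in limma and 2 of the 4 genes passed at an unadjusted p, and 1 without a filter on dim probes. After Benjamini-Hochberg the methods' t-test called 0 of 4 genes in LIM (1003 probes) and 0 of 4 in HER (2 probes), and at its own threshold 2 and 3. Leaving out each array in turn gave 1 to 3 genes in LIM, 1 to 2 in HER, 3 to 4 in the beef effect, and 3 to 6 other basement membrane components, which were also 3 under normexp and loess. NID1 followed HSPG2 with r = 0.79 (adjusted p = 0.0435) when outlying backgrounds were replaced before normexp and loess, and with r from 0.66 to 0.91 leaving out each array, the highest without HER replicate 3 (adjusted p = 0.0179). The r of NID2 ran from -0.23 to 0.39 and that of COL18A1 from 0.07 to 0.48. Replicate numbers were not taken to pair the arrays, since not every correlation of deviations was above 0.1 (-0.24, 0.13, 0.30, and 0.54, own number best only for replicate 4), and with the number as a block (consensus correlation 0.191) the beef effect held 3 of 4 genes, NID2 being lost (adjusted p = 0.0584). The uncalled differences changed sign for NID2 (-0.13 with scaling between arrays, -0.37 to 0.84 leaving out each array) and for NID1 (-0.20 to 0.99), as did CD14 (-0.13 with array weights, -0.18 without replicate 4 of both comparisons, 0.22 without HER replicate 3 and LIM replicate 1, -0.13 to 0.12 leaving out each array). The cause of these changes was not tested. Leaving out each array, calls over all probes ran from 3796 to 7010 in LIM (6056 with all arrays), from 1527 to 5437 in HER (4302), and from 1 to 14 in the difference (41, and 224 with array weights), and normexp and loess gave 3265 in the beef effect (6722). Of the named genes outside the 4, the beef effect call was lost most often for VWA1 (12 of 23 alternatives) and MCAM (10 of 24).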
